A study of Mus musculus with 6 samples.

Results

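Nuclear receptors are transcription factors of 1 family, most of which share a zinc-finger DNA-binding domain and a domain that binds small lipid-soluble ligands. The family was taken here as the protein-coding entries of the deposited gene table whose symbols name a numbered nuclear receptor (Nr0 to Nr6) or a RAR, RXR, PPAR, ROR, HNF4, ERR, estrogen, thyroid hormone or vitamin D receptor. This gave 45 genes among 55471 gene IDs, and 23 of the 45 reached 1 TPM (an abundance scaled for gene length and to a fixed total per library) in at least 3 of the 6 libraries and were tested. The cells were mouse bone marrow progenitors of granulocytes, monocytes and lymphocytes (GMLPs), sorted by the absence of lineage markers and CD150 and the presence of Kit, Sca1 and CD48, and kept for 3 days in culture with doxycycline (DOX). One group carried the leukaemia fusion MLL-ENL (ME, 3 libraries) and the other carried MLL-ENL and LIN28B (L28BME, 3 libraries), so both groups shared the fusion and the DOX. The age of the mice, what drives the fusion or LIN28B, and which of them DOX controls are not given in the labels. Nor do the labels tie the replicates to separate animals or cultures, and p-values therefore speak only of the spread among these 6 samples, which may be technical.

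Some receptors switch genes on when a hormone or a lipid binds them, and without ligand several of them hold target genes silent through corepressors. Many bind DNA as a pair with a retinoid X receptor (RXR), so that RXR level and partner level both matter to a response. In blood progenitors, retinoic acid receptors are best known for their part in granulocyte maturation, liver X receptors and PPARs for lipid handling in macrophages, and the glucocorticoid receptor for stress and immune responses. HNF4A is known above all as a receptor of liver and gut epithelium.

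L28BME cells held more RNA of 6 receptors and less of 2. The receptors that rose were Hnf4a, Pparg, Vdr, Rara, Esrra and Rxrb, and those that fell were Esr1 and Nr1h3, while 15 tested members were not called (adjusted p under 0.05, from limma on log2(TPM + 1) with the Benjamini-Hochberg method over all genes tested). The background was 8.28% of 13348 tested genes called higher and 6.6% called lower, against 26.1% and 8.7% of the 23 tested receptors. The ME and L28BME libraries had no overlap in 12 receptors that were higher in L28BME and 4 that were lower, and over all tested genes these shares were 19.4% and 17.4%. The median log2 fold change was 0.17 over the tested receptors and 0.0033 over all tested genes. Hnf4a passed the minimum of 1 TPM only in L28BME and Nr1h3 only in ME, so these genes had to differ to be tested, and both calls remained with no minimum. Hnf4a and Pparg kept their calls without any 1 library, whereas each of the other 6 lost its call without at least 1 library, as given with each gene. Without ME replicate 2, L28BME replicate 1 or L28BME replicate 3, the receptors called higher numbered 2, and 3 without any 1 of the others. The receptors called lower numbered 1 without any 1 library other than ME replicate 3, and 0 without that library. In pooled cells, a lower value from fewer cells that express a gene and one from less RNA per cell cannot be told apart.

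**Figure D1:**
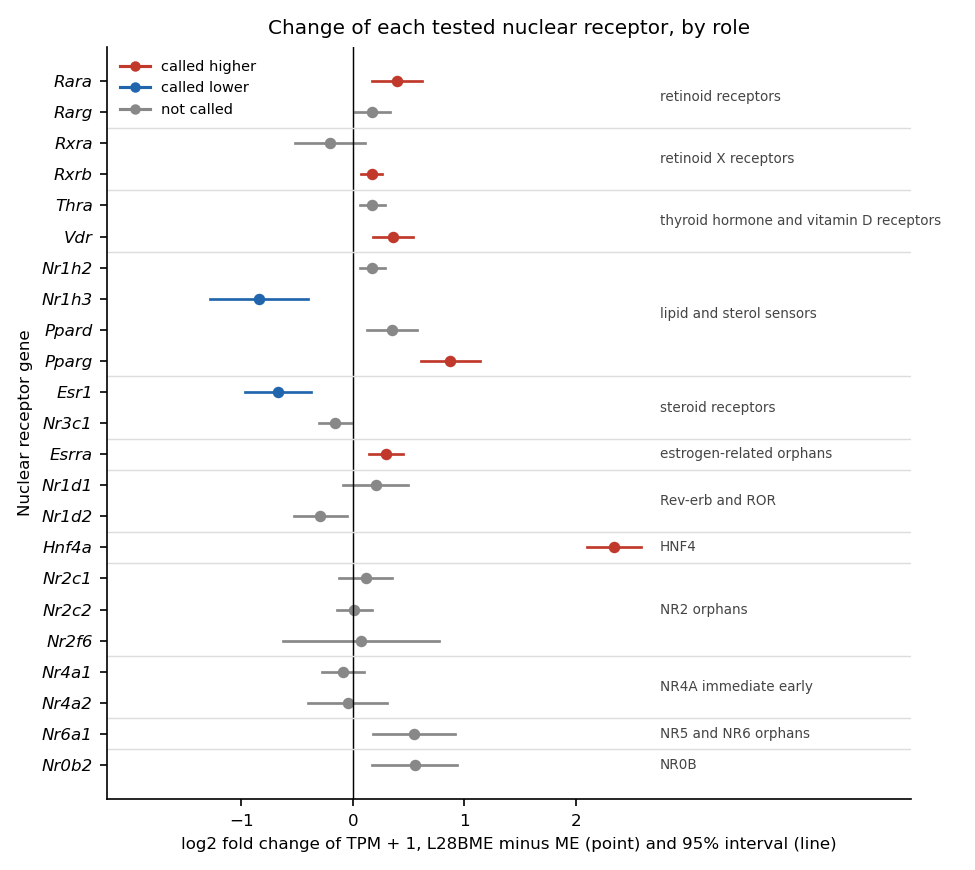
Change of each tested nuclear receptor between the groups, as the log2 fold change of TPM + 1 (L28BME minus ME) with its 95% interval from limma, grouped by role on the y axis. Hnf4a stands at 2.34, while Nr1h3 and Esr1 lie to the left of 0 at -0.84 and -0.67 with intervals that do not reach it.

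The family as a whole summed to 390.4 to 394.5 TPM in ME libraries and to 437.8 to 444.6 TPM in L28BME libraries. Its most abundant member was Rxrb, followed by Nr1h2, Thra, Nr2c2 and Nr3c1, and these 5 held 59.2 to 63.1% of the family's TPM in each library. Nr1h2 and Thra, at means over all 6 libraries of 47.9 and 46.2 TPM, lay closer together than the spread of either over those libraries. Esrra, Rarg, Rara, Nr2f6, Nr4a1, Ppard and Nr2c1 had means from 26.8 down to 10.2 TPM, and the other 11 tested members had means under 10 TPM. At the low end, 15 members were listed at 0 in every library: Rarb, Rxrg, Nr1h4, Nr1h5, Ppara, Esrrb, Esrrg, Rorb, Hnf4g, Nr2e1, Nr2e3, Nr2f1, Nr5a1, Nr5a2 and Nr0b1. Another 7, among them Thrb, Esr2, Nr3c2, Rora, Nr2f2 and Nr4a3, were above 0 in some library and never above 0.638 TPM.

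**Figure D2:**
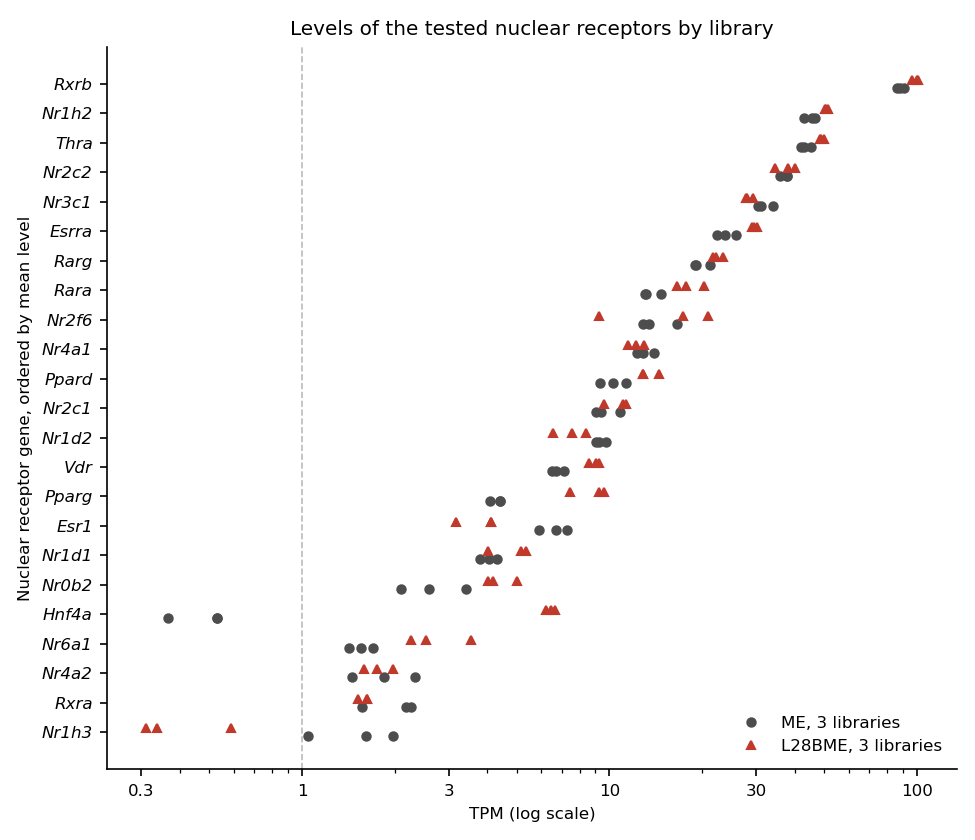
TPM (log scale, x axis) of the 23 tested nuclear receptors in each of the 3 ME and 3 L28BME libraries, ordered by mean level, with the minimum of 1 TPM as a dashed line. Rxrb leads at 88.3 and 99.3 TPM on average, and Hnf4a is the receptor whose groups lie farthest apart, below the line in ME and at 6.21 to 6.66 TPM in L28BME.

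The labels were checked first against the genes that define the cells. Lin28b was listed at 0 in each ME library and at 11.2 to 11.9 TPM in the L28BME libraries. Of the 7 sort and identity markers, Kit, Cd48, Cd34, Flt3 and Ptprc had means of at least 79.2 TPM in both groups and Slamf1, which encodes CD150, stayed under 1 TPM in all 6. Ly6a, the Sca1 gene, fell from 10.6 to 2.07 TPM. Of the 6 tested among these 7 markers, 1 was called higher in L28BME and 3 lower. The 7 summed to 1112 to 1152 TPM in ME and 1062 to 1083 TPM in L28BME. Markers of other blood cells moved with the groups. Summed over 7 neutrophil genes they were 236 to 244 TPM in ME and 516 to 527 TPM in L28BME, over 5 megakaryocyte genes 80.1 to 84.4 and 123 to 140 TPM, over 6 B cell genes 28.3 to 29.95 and 57.7 to 63.4 TPM, and over 7 macrophage genes 97.4 to 98.4 and 84.1 to 89.0 TPM. Of the 6 tested neutrophil genes, 4 were called higher in L28BME and 1 lower. The macrophage sum was carried by Cd68, Csf1r and Adgre1. Of these 3 tested genes, 1 was called higher in L28BME and 1 lower, with a median log2 fold change of 0.26. The complement gene C1qa and 3 other macrophage markers stayed under 1 TPM, as did 4 of the B cell genes. The 6 mast cell and basophil genes summed to 470 to 502 TPM in ME and 393 to 407 TPM in L28BME. Of these 6, 2 were called lower and 4 were not called. The 6 T cell genes summed to 161 to 169 TPM in ME and 112 to 127 TPM in L28BME, with Cd3e, Cd3g and Cd8a under 1 TPM. This lower sum did not hold for each gene. Of the 3 tested T cell genes, 2 were called higher in L28BME and 1 lower, with a median log2 fold change of 0.71. The 5 erythroid genes summed to 2.54 to 3.95 TPM in ME and 4.81 to 7.30 TPM in L28BME, and neither of the 2 tested was called. Mitochondrially encoded RNA made up 4.12 to 4.35% of TPM in ME and 4.49 to 4.85% in L28BME. The part of these cells or of RNA quality in any receptor's change was not tested.

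Retinoid receptors bind retinoic acid, and Rara encodes the form best known in myeloid cells. Rara (ENSMUSG00000037992, chromosome 11, 98927818 to 98974942 on the plus strand of GRCm38) was at 13.2, 13.0 and 14.7 TPM in ME and at 17.8, 16.6 and 20.3 TPM in L28BME. All 3 L28BME libraries lay above all 3 ME libraries. Rara rose from 13.6 ± 0.914 to 18.3 ± 1.88 TPM (means ± SD of n = 3 libraries, as for all such values; limma adjusted p = 0.0381, log2 fold change 0.39 with SE 0.092). The call held without L28BME replicate 2 and was lost without any 1 of the other 5 libraries (adjusted p = 0.0625 to 0.115) and with no minimum TPM (0.0679). Rarg was at 21.2, 19.1 and 19.1 TPM in ME and at 22.2, 23.3 and 21.8 TPM in L28BME, and was not called (log2 fold change 0.17, 95% interval 0.02 to 0.33, adjusted p = 0.133). Rarb was listed at 0 throughout.

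Retinoid X receptors are the common partners of many receptors, and almost all of their RNA here was Rxrb. Rxrb (chromosome 17, 34031812 to 34038399, plus strand) stood at 88.0, 86.0 and 90.9 TPM in ME and at 100.2, 96.6 and 101.1 TPM in L28BME, again without overlap. It rose 1.12-fold, from 88.3 ± 2.45 to 99.3 ± 2.42 TPM (limma adjusted p = 0.0350, log2 fold change 0.17 with SE 0.038). This call was lost without any 1 of the 6 libraries (adjusted p = 0.0577 to 0.107) and without an intensity trend in the variance (0.0715). Rxra, at 2.003 ± 0.384 and 1.59 ± 0.0589 TPM, was not called (log2 fold change -0.20, 95% interval -0.52 to 0.11, adjusted p = 0.353), and Rxrg was listed at 0.

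Of the thyroid hormone and vitamin D receptors, Vdr rose. Vdr (ENSMUSG00000022479, chromosome 15, 97854425 to 97910630, minus strand), which binds active vitamin D, had 6.49, 7.13 and 6.69 TPM in ME and 9.26, 8.59 and 9.08 TPM in L28BME. Its groups did not overlap, and its mean went from 6.77 ± 0.329 to 8.97 ± 0.347 TPM (limma adjusted p = 0.0246, log2 fold change 0.36 with SE 0.072). That call was lost without any 1 of the 6 libraries (adjusted p = 0.0522 to 0.0804) and with no minimum TPM (0.0624). Thra, the thyroid hormone receptor of most tissues, was at 41.9, 42.9 and 45.4 TPM in ME and at 49.9, 48.8 and 48.5 TPM in L28BME, and narrowly missed the threshold (log2 fold change 0.17, 95% interval 0.06 to 0.28, adjusted p = 0.0529). The 3′ end of Thra overlaps that of Nr1d1 on the opposite strand, and use of strand in the quantification is not stated in the labels. The sum of the 2 genes was called higher (log2 fold change 0.18, adjusted p = 0.0459). Thrb was at 0.416 TPM or less in every library.

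Among the lipid and sterol sensors, Pparg rose and Nr1h3 fell. Pparg encodes the PPAR that drives fat cell differentiation and lipid handling in macrophages. It lies on chromosome 6 (115360951 to 115490399, plus strand) and was at 4.42, 4.10 and 4.41 TPM in ME and at 9.22, 9.62 and 7.45 TPM in L28BME. The lowest L28BME library was thus well above the highest ME library. Pparg rose 2.04-fold, from 4.31 ± 0.182 to 8.77 ± 1.16 TPM (limma adjusted p = 0.00479, log2 fold change 0.87 with SE 0.11), and its call remained under all 17 alternatives (highest adjusted p 0.0363). Ppard, a PPAR expressed in most tissues, was at 11.3, 9.29 and 10.3 TPM in ME and at 14.5, 12.9 and 12.8 TPM in L28BME and was not called (log2 fold change 0.35, 95% interval 0.12 to 0.58, adjusted p = 0.0570). Ppara, the PPAR of fat oxidation in liver, was listed at 0.

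The liver X receptors, which sense oxidised cholesterol, differed in level by more than an order of magnitude. Nr1h3 encodes LXR alpha (ENSMUSG00000002108, chromosome 2, 91184061 to 91202834, minus strand). Its values were 1.04, 1.62 and 1.98 TPM in ME and 0.311, 0.337 and 0.586 TPM in L28BME, without overlap. It fell from 1.55 ± 0.474 to 0.411 ± 0.152 TPM (limma adjusted p = 0.0301, log2 fold change -0.84 with SE 0.18). The call held without ME replicate 1 and was lost without any 1 of the other 5 libraries (adjusted p = 0.0568 to 0.0948). Nr1h2, which encodes LXR beta, was at 46.5, 45.5 and 42.8 TPM in ME and at 50.7, 51.5 and 50.2 TPM in L28BME. It was not called (log2 fold change 0.18, 95% interval 0.06 to 0.29, adjusted p = 0.0525). A minimum of 5 TPM brought the adjusted p to 0.0466, past the threshold.

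Of the steroid receptors, Esr1 fell and Nr3c1 was not called. Esr1, estrogen receptor alpha (ENSMUSG00000019768, chromosome 10, 4611593 to 5005614, plus strand), was at 6.69, 5.92 and 7.29 TPM in ME and at 3.18, 4.10 and 4.12 TPM in L28BME. Every L28BME library was below every ME library. Esr1 fell from 6.63 ± 0.687 to 3.80 ± 0.539 TPM (limma adjusted p = 0.0184, log2 fold change -0.67 with SE 0.12). The call was lost without ME replicate 1 (adjusted p = 0.0604) or ME replicate 3 (0.0643). Nr3c1, the glucocorticoid receptor and the most abundant steroid receptor here, was at 30.5, 34.1 and 31.2 TPM in ME and at 27.99, 27.8 and 29.3 TPM in L28BME. These groups did not overlap, and Nr3c1 was not called (log2 fold change -0.16, 95% interval -0.31 to -0.02, adjusted p = 0.125). Esr2 and Nr3c2, the mineralocorticoid receptor, were at 0.112 TPM or less. The progesterone receptor gene Pgr has a symbol outside the rule and was picked as a further steroid receptor with earlier results known. It was at 1.70, 1.76 and 2.14 TPM in ME and at 0.277, 0.234 and 0.475 TPM in L28BME, and it fell from 1.87 ± 0.236 to 0.329 ± 0.129 TPM (limma adjusted p = 0.00414, log2 fold change -1.11), a call that remained under all 16 alternatives in which it was tested. Like Nr1h3, Pgr passed the minimum TPM only through ME.

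Esrra, which encodes an orphan receptor known for mitochondrial energy genes, was called higher, with a limit set by its neighbour. Its values were 23.7, 22.4 and 25.8 TPM in ME and 29.0, 29.5 and 30.3 TPM in L28BME, without overlap (23.98 ± 1.71 to 29.6 ± 0.628 TPM, limma adjusted p = 0.0303, log2 fold change 0.29 with SE 0.063). On chromosome 19 (6910977 to 6921813, minus strand), Esrra overlaps exons of Trmt112 on the opposite strand, and Trmt112 was at 48.2 ± 1.46 and 44.9 ± 3.16 TPM. Summed with the genes that overlap it, Esrra had a log2 fold change of 0.04 and was not called (adjusted p = 0.593). The call held without ME replicate 3 and was lost without any 1 of the other 5 libraries (adjusted p = 0.0765 to 0.0909).

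Rev-erb and ROR receptors compete for the same DNA elements in the circadian clock, with Rev-erbs as repressors and RORs as activators. Nr1d2, Rev-erb beta, was at 9.08, 9.73 and 9.27 TPM in ME and at 6.55, 8.38 and 7.54 TPM in L28BME and was not called (log2 fold change -0.29, 95% interval -0.53 to -0.05, adjusted p = 0.107). Nr1d1, Rev-erb alpha, was at 4.05 ± 0.255 and 4.84 ± 0.721 TPM with overlapping groups (log2 fold change 0.20, 95% interval -0.09 to 0.49, adjusted p = 0.312). Rora was at 0.638 TPM or less in every library.

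Hnf4a showed the largest difference of any tested receptor. The gene (ENSMUSG00000017950, chromosome 2, 163506808 to 163572910, plus strand) was at 0.528, 0.530 and 0.368 TPM in ME and at 6.66, 6.48 and 6.21 TPM in L28BME. Replicates were close, and the groups lay far apart. Hnf4a rose 13.6-fold, from 0.475 ± 0.0929 to 6.45 ± 0.223 TPM (limma adjusted p = 1.60e-04, log2 fold change 2.34 with SE 0.099 and 95% interval 2.10 to 2.58), and the log2 scale with 1 TPM added understates the fold of so low a gene. The call remained under all 17 alternatives, with adjusted p from 0.00163 to 0.00245 without any 1 library. Among the 45 receptors Hnf4a was rank 24 by mean level in ME and rank 16 in L28BME, where it was below Pparg and Vdr. Its paralog Hnf4g was listed at 0.

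Markers of the tissues in which HNF4A is best known were low. Of 8 hepatocyte genes, 6 (Alb, Ttr, Serpina1a, Fgb, Cyp3a11 and Tat) were listed at 0 in every library, Apoa1 was at 0 in all but 1 ME library, and Afp fell from 8.60 ± 1.10 to 5.34 ± 0.431 TPM (limma adjusted p = 0.0189). The summed hepatocyte genes were 7.96 to 9.86 TPM in ME and 4.91 to 5.77 TPM in L28BME. Of 6 intestinal epithelium genes, Krt20 was listed at 0, Vil1 and Krt8 stayed under 1 TPM and Epcam did not exceed 1.02 TPM, and the sum was 7.43 to 10.5 TPM in ME and 11.7 to 13.2 TPM in L28BME. That sum includes Cdh17, which is also among the HNF4A targets. RefSeq (GRCm38.p6) gives Hnf4a 2 promoter windows of 250 bases before to 50 bases after a start, at chr2:163506607-163506906 and chr2:163546905-163547204, and gene-level TPM do not show which start was used. On either strand, neither window holds AGGTCA, the half-site that many receptors bind, or AAAGTCCA, a core of the HNF4 motif. Over 32851 promoter windows of all genes these letters were in 16.3% and 1.25%, and over the 33 windows of tested receptors in 21.2% and 3.03%. A match describes letters in a window and not a bound site.

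**Figure D3:**
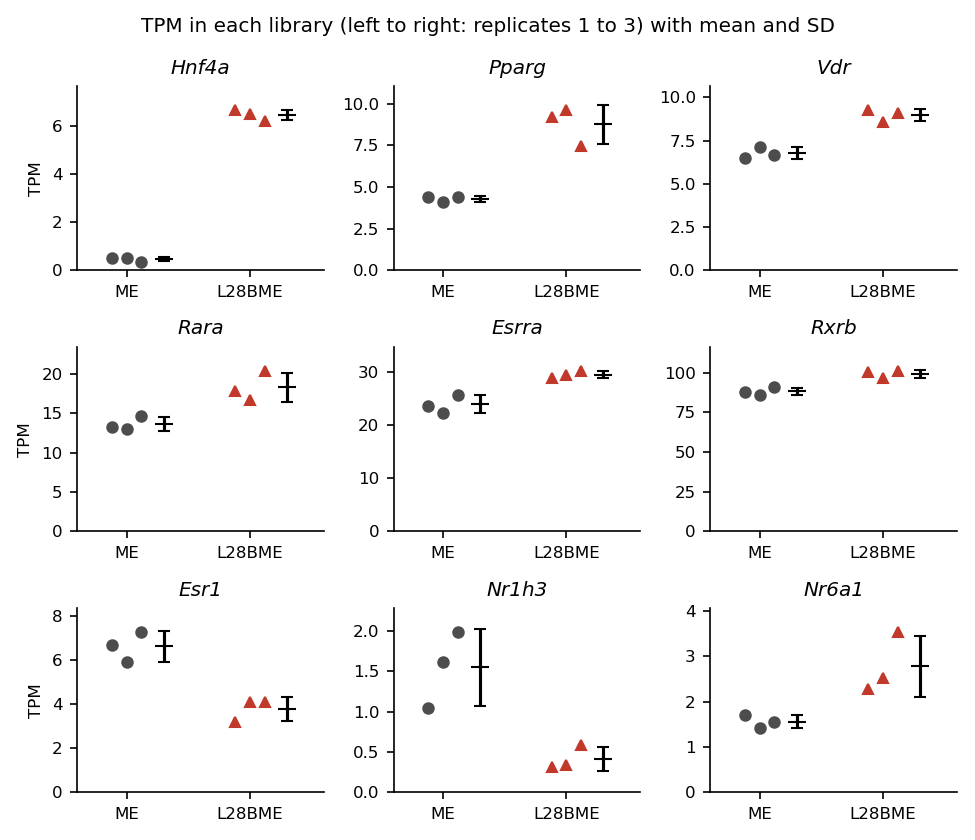
TPM in each library for the 8 called nuclear receptors and Nr6a1, with the mean and SD (bar) beside the points of each group and every y axis from 0. In all 9 panels the points of the groups do not overlap, but 8 of these genes were picked because they were called. Over all tested genes 19.4% were higher in L28BME without overlap and 17.4% lower. Relative to each panel's own axis, the distance between the groups is widest for Hnf4a and narrow for Rxrb.

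Orphan receptors of the NR2 group, which include testicular receptors and relatives of COUP-TF, were not called. Nr2c2 was at 37.7, 37.7 and 35.97 TPM in ME and at 40.03, 34.5 and 38.2 TPM in L28BME (log2 fold change 0.01, 95% interval -0.15 to 0.17, adjusted p = 0.920 by limma). Nr2c1 was at 9.42, 9.07 and 10.8 TPM in ME and at 11.3, 9.60 and 11.1 TPM in L28BME (interval -0.12 to 0.35, adjusted p = 0.485). Nr2f6 was at 13.5, 16.6 and 12.9 TPM in ME and at 17.4, 20.9 and 9.22 TPM in L28BME. Its L28BME replicate 3 lay below every other library, and the interval was wide (-0.63 to 0.78, adjusted p = 0.895). The other NR2 genes, Nr2e1, Nr2e3, Nr2f1 and Nr2f2, were listed at 0, apart from 0.0186 TPM for Nr2f2 in 1 library.

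NR4A receptors are immediate early genes, induced within hours by growth factors and antigen receptors. Nr4a1 was at 13.9, 12.9 and 12.3 TPM in ME and at 11.5, 12.9 and 12.2 TPM in L28BME (log2 fold change -0.09, 95% interval -0.28 to 0.10, limma adjusted p = 0.497). Nr4a2 was at 1.88 ± 0.435 and 1.77 ± 0.195 TPM (interval -0.40 to 0.31, adjusted p = 0.870), and Nr4a3 was at 0.0435 TPM or less. Groups overlapped for all 3. Nr0b2 encodes SHP, a receptor without a DNA-binding domain that represses other receptors. It was at 3.43, 2.59 and 2.11 TPM in ME and at 4.04, 4.18 and 4.995 TPM in L28BME, without overlap, and was not called (log2 fold change 0.56, 95% interval 0.17 to 0.94, adjusted p = 0.0680). Without ME replicate 1, the highest ME value, Nr0b2 was called (limma adjusted p = 0.0438). The other 15 alternatives in which it was tested left it uncalled.

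Nr6a1 (germ cell nuclear factor, ENSMUSG00000063972) is an orphan repressor that silences pluripotency genes in the embryo. It was at 1.70, 1.42 and 1.56 TPM in ME and at 2.27, 2.53 and 3.53 TPM in L28BME. Values did not overlap, and the means were 1.56 ± 0.138 and 2.78 ± 0.667 TPM, a ratio of 1.78. The test was missed over all genes (limma adjusted p = 0.0617, log2 fold change 0.55 with SE 0.15 and 95% interval 0.18 to 0.91). Nr6a1 passed when only protein-coding genes were fitted (0.0458), and none of the other 15 alternatives that included it gave a call. With single libraries dropped, limma adjusted p lay between 0.0727 and 0.161, and a replicate block gave 0.120.

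Nr6a1 is shown by sequence because it was the only tested receptor with a match to the seed of let-7, a microRNA family that LIN28B keeps from maturing. Its longest annotated 3′ UTR (4453 bases, GENCODE M21, GRCm38, chromosome 2, minus strand) holds 8 matches. Of these, 3 pair with the whole seed, bases 2 to 8 of the microRNA, and have an A opposite base 1 (8mer, CTACCTCA), and 5 pair with bases 2 to 8 only (7mer-m8, CTACCTC). No tested protein-coding gene held more, and 3 genes, with Nr6a1 counted, held as many. Below are mature let-7a from RefSeq (GRCm38.p6, chr13:48538239-48538260, minus strand) with its seed in capitals and 4 Nr6a1 matches named by their first base after the stop codon. Capitals in the target sites mark the match, and the sites are written as DNA of the transcript strand, 5′ to 3′.
let-7a-5p: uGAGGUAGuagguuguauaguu
Nr6a1 at base 371 (8mer, chr2:38727449-38727456): gacaaagacaaCTACCTCAatggaaacagg
Nr6a1 at base 1228 (8mer, chr2:38726592-38726599): ggggcattaaaCTACCTCAtgtttctaagg
Nr6a1 at base 4135 (8mer, chr2:38723685-38723692): gcatcatgaacCTACCTCAggctacctccc
Nr6a1 at base 4145 (7mer-m8, chr2:38723676-38723682): cctacctcaggCTACCTCccagtcctccc

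The matches at bases 4135 and 4145 follow each other so closely that the printed stretches overlap. Of the 45 receptors, 5 (11.1%) held a match in an annotated 3′ UTR, counting also the 7mer-A1 (TACCTCA, bases 2 to 7 and the A), among them Nr6a1, Thrb, Esr2 and Esrrb. Those other than Nr6a1 were under 1 TPM in every library, and of the 23 tested receptors 1 (4.35%) held a match. None of the 6 receptors called higher and none of the 2 called lower held one. Over all tested protein-coding genes the share was 17.8%, among those called higher 28.4% and among those called lower 14.5%. The median length of the longest 3′ UTR was 1086.5 bases for the 6 higher receptors and 1241 bases for all genes called higher. A match is a description of the annotated letters and does not show that let-7 binds there.

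**Figure D4:**
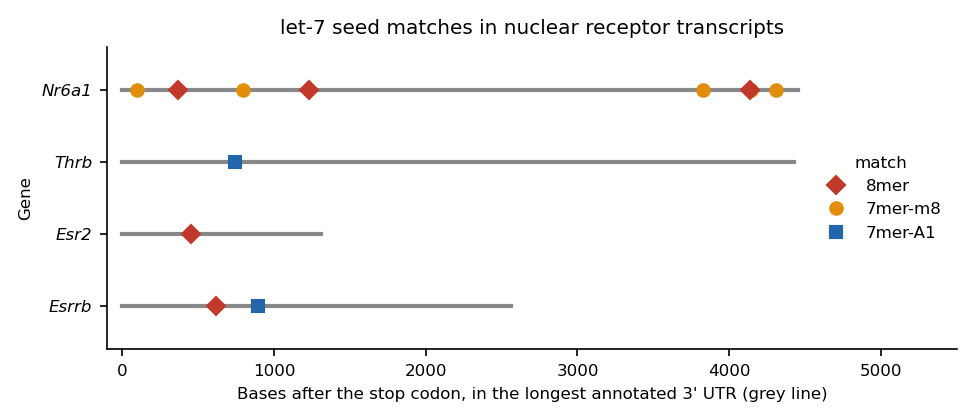
Positions of let-7 seed matches, in bases after the stop codon, along the longest annotated 3′ UTR (grey line) of Nr6a1, Thrb, Esr2 and Esrrb, with the kind of match by marker. Nr6a1 carries 8 matches in 4453 bases, of which the pair at 4135 and 4145 lie on top of each other, and the other genes shown carry 1 each except Esrrb with 2.

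Partners and targets of the receptors were read from 8 gene lists of 170 genes in all, chosen with earlier results of these data known, and several genes stand on more than 1 list. Of 103 tested genes, 24 were higher and 9 lower (23.3% and 8.74%), and their median log2 fold change was 0.08. Without L28BME replicate 1 the higher genes numbered 15. Coregulators mostly were not called. Of 25 tested, 2 rose (8%) and 1 fell (4%), close to the 8.28% and 6.6% of all genes, with a median of 0.04. Tbl1x, a subunit of the NCoR corepressor complex, rose from 70.2 ± 0.965 to 87.8 ± 0.967 TPM (log2 fold change 0.32, limma adjusted p = 0.00258). Ncoa3, a coactivator of steroid receptors, rose from 26.7 ± 2.14 to 39.8 ± 3.79 TPM (adjusted p = 0.0132). Ncoa7, a coactivator that binds estrogen receptor, was called lower (18.3 ± 2.16 to 12.6 ± 0.489 TPM, adjusted p = 0.0207), a call lost with overlapping gene models summed (0.112) and without any 1 library other than ME replicate 3 (up to 0.0717). The corepressor Ncor1 was at 199 and 218.5 TPM and was not called (adjusted p = 0.112).

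Genes that make, break down or carry receptor ligands were mostly silent, with 24 of 34 not tested. Of the 10 tested 1 rose (10%) and 2 fell (20%; median log2 fold change -0.09), beside 8.28% and 6.6% of all tested genes. Dio2, the deiodinase that turns thyroxine into active thyroid hormone, was at 6.37, 7.02 and 7.18 TPM in ME and at 2.08, 1.81 and 1.81 TPM in L28BME. It fell with a log2 fold change of -1.44 (limma adjusted p = 6.06e-04), while Slc16a10, a transporter of thyroid hormone and aromatic amino acids, rose from 34.6 ± 1.39 to 43.9 ± 0.925 TPM (adjusted p = 0.00740). Aldh1a3, which makes retinoic acid, fell from 1.52 ± 0.218 to 0.214 ± 0.228 TPM (adjusted p = 0.0130) and lost its call without ME replicate 2 or 3 (highest adjusted p 0.0531). It passed the minimum TPM only through ME.

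HNF4A targets of liver and gut were for the most part not tested, 22 of 27. Of the 5 tested, 2 rose (40%) and none fell, beside 8.28% of all tested genes called higher and 6.6% called lower. Cdh17, a cadherin of liver and intestine, was at 3.77, 4.202 and 3.25 TPM in ME and at 6.94, 6.95 and 7.06 TPM in L28BME (log2 fold change 0.76, limma adjusted p = 0.00560). Apoc2, an activator of lipoprotein lipase, was at 0.838, 0.944 and 0 TPM in ME and at 4.06, 4.71 and 4.41 TPM in L28BME (log2 fold change 1.82, adjusted p = 0.00876). It was tested only through its L28BME values, and its call was lost with a pseudocount of 0.1. Of the others, Mttp was at 0.625 and 1.05 TPM, F7 at 2.63 and 2.05 TPM and Apoa2 at 1.94 and 1.77 TPM, without a call.

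LXR targets rose in 6 of 12 tested genes (50%) and fell in none, beside 8.28% of all genes called higher, with a median log2 fold change of 0.33. The 6 were Scd1, Abcg1, Apoc1, Lpcat3, Arl4c and Scd2. Only 2 kept their calls when ME replicate 2 or L28BME replicate 1 was left out, 3 when ME replicate 1 or L28BME replicate 3 was, 4 when ME replicate 3 was, and 5 when L28BME replicate 2 was. Scd1, which makes monounsaturated fatty acids, rose from 102 ± 3.57 to 135 ± 3.26 TPM (log2 fold change 0.40, limma adjusted p = 0.00235), and the cholesterol exporter gene Abcg1 rose from 15.1 ± 0.226 to 20.5 ± 0.982 TPM (adjusted p = 0.00692). Apoc1, an apolipoprotein gene next to Apoe, rose from 0.416 ± 0.21 to 2.53 ± 0.837 TPM (adjusted p = 0.0156) and lost its call without ME replicate 1 or 2 or L28BME replicate 1 or 2 (highest adjusted p 0.0578). It passed the minimum TPM only through L28BME. Lpcat3, a phospholipid acyltransferase, was called higher (124 ± 3.85 to 143 ± 2.50 TPM, adjusted p = 0.0167), which was lost with overlapping gene models summed (0.170) and without ME replicate 2 or L28BME replicate 1 or 3 (up to 0.0602). The canonical targets Srebf1, at 82.2 and 81.7 TPM, Mylip, at 8.85 and 8.53 TPM, and Fasn, at 168 and 159 TPM, were not called. Abca1, which exports cholesterol, was under the minimum, at 0.741 to 0.769 TPM in ME and 0.431 to 0.521 TPM in L28BME, without overlap. Smpdl3a, a phosphodiesterase gene, was at 11.4 to 15.2 TPM in ME and 7.99 to 10.9 TPM in L28BME, also lower without overlap, and was not called (log2 fold change -0.45, 95% interval -0.80 to -0.10, adjusted p = 0.0939). Apoe, at means of 6.63 TPM in ME and 9.36 TPM in L28BME, was higher without overlap and not called (limma adjusted p = 0.124). The same held for Pltp, at 1.10 and 1.82 TPM (adjusted p = 0.116). These values stand beside a fall of Nr1h3 and no call for Nr1h2.

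PPAR targets rose in 2 of 14 tested genes (14.3%) and fell in none (median log2 fold change -0.08). Over all tested genes 8.28% were called higher and 6.6% lower. Cpt1a, the gate of mitochondrial fatty acid uptake, was at 54.1, 53.3 and 54.5 TPM in ME and at 65.5, 65.7 and 66.9 TPM in L28BME (log2 fold change 0.29, limma adjusted p = 0.00414). Angptl4, a secreted inhibitor of lipoprotein lipase, rose from 23.2 ± 3.53 to 33.8 ± 1.85 TPM (adjusted p = 0.0321), and kept its call only without ME replicate 1 or 2 among the single libraries left out (highest adjusted p 0.0952). The other 12, which include Cpt2, Acadl, Plin2 and Lpl, were not called, although Cpt2 was called lower without ME replicate 1, and Fabp4, Cd36 and Plin1 were among the 11 below the minimum.

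Retinoic acid targets rose in 3 of 7 tested genes (42.9%) and fell in none (median 0.12). Over all tested genes these shares were 8.28% and 6.6%. Ccr9, a gut-homing chemokine receptor, was at 1.38, 1.14 and 0.899 TPM in ME and at 5.69, 7.17 and 7.56 TPM in L28BME, a log2 fold change of 1.87 (limma adjusted p = 0.00101). Tgm2, a transglutaminase, rose from 24.7 ± 0.0931 to 36.4 ± 0.842 TPM (adjusted p = 0.00113), and Cd38, a surface enzyme, from 0.886 ± 0.02 to 2.01 ± 0.139 TPM (adjusted p = 0.00917). Cd38 passed the minimum only through L28BME. The classical targets Cyp26a1, Cyp26b1 and Stra6 were below the minimum.

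Glucocorticoid targets moved both ways, with 5 of 16 tested genes higher (31.2%) and 4 lower (25%) and a median log2 fold change of 0.03. Beside them, 8.28% of all tested genes were called higher and 6.6% lower. Besides the genes below, Tsc22d3, Zbtb16 and Errfi1 were called higher and Sgk1 and Nfkbia lower. With ME replicate 3 or L28BME replicate 2 left out there were 3 higher genes, and with each of the other 4 libraries left out there were 2, where Tsc22d3, Zbtb16 and Errfi1 lost their calls. The lower genes numbered 3 without any 1 library other than ME replicate 2, where Nfkbia lost its call (limma adjusted p up to 0.132). Il1r2, the decoy receptor of interleukin 1, was at 8.15, 7.63 and 7.07 TPM in ME and at 16.8, 14.4 and 14.99 TPM in L28BME (log2 fold change 0.93, limma adjusted p = 0.00205), and Zfp36, which speeds mRNA decay, rose from 28.5 ± 1.08 to 37.4 ± 1.97 TPM (adjusted p = 0.00979). The metallothionein genes Mt2 and Mt1 fell from 16.9 ± 2.67 to 4.96 ± 0.915 TPM (adjusted p = 0.00268) and from 160.1 ± 4.72 to 92.6 ± 16.8 TPM (adjusted p = 0.00974). Fkbp5, a co-chaperone of the receptor, was at 149.6, 151.8 and 153.7 TPM in ME and at 146.1, 140.9 and 63.6 TPM in L28BME, where replicate 3 alone was far lower, and was not called (adjusted p = 0.382). Nr3c1 itself was not called.

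Clock genes that work with Rev-erb and ROR receptors were higher in 3 (18.8%) and lower in 2 (12.5%) of 16 tested (median 0.16). The shares over all tested genes were 8.28% and 6.6%. The lower clock genes numbered 1 without any 1 library other than L28BME replicate 1. Nfil3, a repressor under Rev-erb control, was at 45.8, 47.9 and 48.7 TPM in ME and at 68.8, 69.5 and 68.5 TPM in L28BME (log2 fold change 0.53, limma adjusted p = 9.48e-04). The clock repressor Cry2 rose from 11.7 ± 0.971 to 16.8 ± 0.496 TPM (adjusted p = 0.00986). Per2 was also called higher (adjusted p = 0.0420) and lost its call without any 1 of the 6 libraries (0.0571 to 0.124). Bhlhe40, another repressor, fell from 45.7 ± 0.768 to 38.01 ± 1.19 TPM (adjusted p = 0.0131), a call lost without ME replicate 3 (0.0514). Clock, an activator of the core loop, fell from 4.68 ± 0.55 to 2.78 ± 0.264 TPM (adjusted p = 0.0203) and lost its call without ME replicate 1 or 2 or L28BME replicate 2 or 3 (up to 0.0649).

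**Figure D5:**
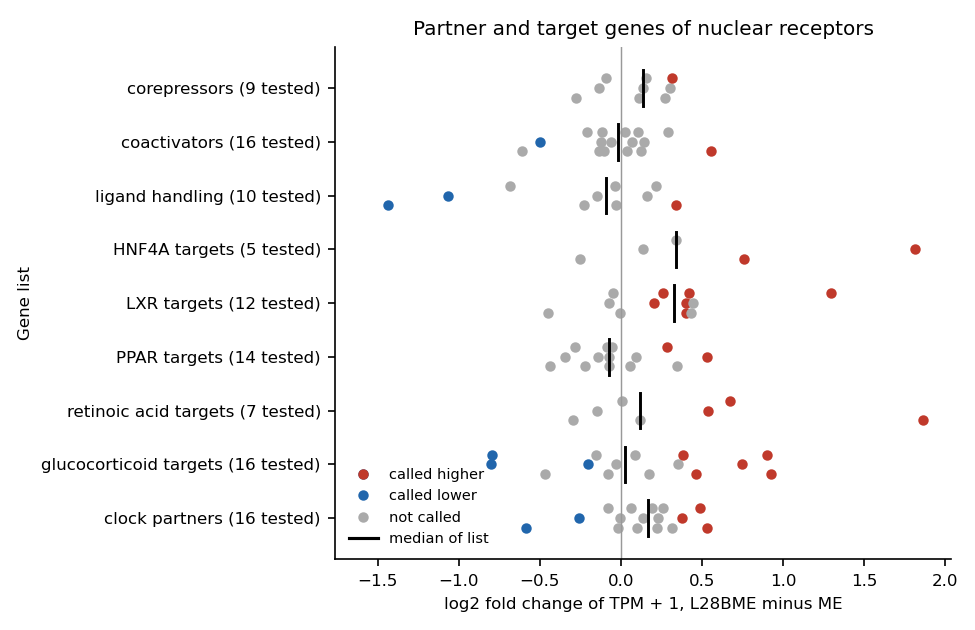
log2 fold change of TPM + 1 (L28BME minus ME, x axis) of the tested genes on each list of receptor partners and targets, with corepressors and coactivators apart, 1 point per gene and the list median as a black bar. Glucocorticoid targets lie on both sides of 0 with 5 higher and 4 lower calls, and LXR targets have 6 higher calls and no lower one.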

How the data were processed

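RNA of cultured GMLPs was sequenced in 3 ME and 3 L28BME libraries (Norgen single-cell RNA kit, TruSeq Stranded mRNA kit). The tools named in the submitters' processing notes are bcl2fastq, HISAT2, StringTie and DESeq2, with GRCm38. Their versions and the use of strand are not stated there. The authors deposited TPM per gene, which are not counts, so no count model was fitted, sequencing depth is not known and a single value has no interval. A percent GC per gene comes with the deposited table. Ppard was on 2 entries, of which 1 held values.

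The comparison of the groups used limma 3.58.1 in R 4.3.3 on log2(TPM + 1), with an intensity trend, two-sided, over 13348 genes with at least 1 TPM in at least 3 of 6 libraries. Benjamini-Hochberg adjusted p under 0.05 was called. Members, lists and rules were chosen with earlier results of these data known. Some genes are not reported here. The other members are given by library where called or where a group mean reached 5 TPM, and of each list up to 4 called genes with the smallest p. Other list genes, including those listed as not called or below the minimum, were chosen after their values were seen. Overlapping gene models share exonic bases on either strand in GENCODE M21. The 17 alternatives were a pseudocount of 0.1, no minimum or 5 TPM, upper quartile scaling, quantile normalization, limma without a trend or with robust empirical Bayes, protein-coding genes only, overlapping gene models summed, a replicate block, each library left out, and removal of a GC trend, which was added after seeing the data. The procedure was tested on data simulated with normal noise, in which only genes above 5 TPM in ME were changed. That test does not speak for genes as low in ME as Hnf4a or Nr1h3. Sequences came from RefSeq (GRCm38.p6; 40 of 45 members had a promoter window) and GENCODE M21 transcripts, read with Python 3.11.15. Figures used matplotlib 3.10.9 and pandas 2.3.3.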

Additional observations from a re-analysis of the deposited data

How the results depend on the processing

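Receptor calls were few and mostly near the threshold, depth is unknown, and 3 libraries per group limit the precision. The labels do not say whether equal replicate numbers pair the samples, and the main fit used no replicate block. The deviations of same-numbered samples correlated across genes at r = -0.032, -0.0743 and -0.0516. Those of differently numbered samples correlated at r = -0.0059 to 0.0551. With 3 libraries per group, these values cannot decide whether the samples were paired. With a replicate block, 548 genes were higher and 400 lower (1105 and 881 without it), 3 receptors were higher and 0 lower (6 and 2), and 15 partner genes were higher and 5 lower (24 and 9). The 3 were Hnf4a, Pparg and Rara, and the partner genes that lost their calls were Ncoa3, Aldh1a3, Apoc1, Arl4c, Angptl4, Cd38, Tsc22d3, Zfp36, Nfkbia, Errfi1, Clock, Per2 and Bhlhe40. With protein-coding genes only, 10 receptors were higher, as Nr1h2, Nr6a1, Ppard and Thra joined, and with a minimum of 5 TPM 1 was lower, because Nr1h3 was then not tested. Leaving out 1 library gave 617 to 693 genes higher and 461 to 582 lower, 2 to 3 receptors higher and 0 to 1 lower, and 15 to 20 partner genes higher and 6 to 8 lower. Removal of a GC trend, chosen after seeing the data, kept all 8 receptor calls, as did a pseudocount of 0.1, upper quartile scaling, quantile normalization and robust empirical Bayes. No receptor that was called changed direction under any alternative. No scaling moved the median log2 fold change of all genes beyond -0.0106.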

Other observations

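Receptors for bile acids and xenobiotics, which are regular partners of HNF4A and RXR in liver, were also read. Nr1h4 and Nr1i2 were listed at 0 in every library and Nr1i3 was at 0.160 TPM or less. The percent GC of the 6 receptors called higher ran from 39.5 (Pparg) to 57 (Rxrb) with a median of 51.6. The median was 52.9 for the 15 tested receptors not called, 43.8 for the 2 called lower and 46.3 over all tested genes. No receptor call was lost when a GC trend was removed.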
